A study of Mus musculus with 8 samples.

Results

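The SOCS family of cytokine signal inhibitors comprises 8 mouse genes, Socs1 to Socs7 and Cish, and all 8 were found by symbol among the 55487 genes of each deposited table. The family was chosen by gene name, with earlier results of these data known, so the values of its members are given as a description. Regulatory T cells (Tregs) were profiled by RNA sequencing in 8 libraries, 2 in each of 4 groups: SRC-3KO and control, each without a tumor and with one. SRC-3KO refers to loss of the coactivator SRC-3, which is encoded by Ncoa3. The question of the series was how the transcriptome of SRC-3KO Tregs differs from that of control Tregs.

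All libraries came from spleens of C57BL/6 mice, and RNA of sorted cells was amplified with a SMART-Seq v4 kit. Without a tumor, both SRC-3KO libraries are GFP+ and carry the word Tam1 in their titles, a word that the labels leave unexplained. The control group without a tumor is mixed: replicate 1 is titled as WT with no GFP in its source label, and replicate 2 is titled as a Foxp3-Cre line and is GFP+. They are called the WT control and the Foxp3-Cre control here. With a tumor, both controls are GFP+ and titled as Foxp3-Cre, and both SRC-3KO libraries are GFP+. In a Foxp3-Cre line the recombinase is driven from the gene of the Treg transcription factor Foxp3. No label gives the age of the mice, the kind of tumor, the allele behind SRC-3KO or whether replicates are separate animals, so p-values measure only the spread between these libraries, which may be technical.

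SOCS proteins are feedback inhibitors of the JAK-STAT pathway. A cytokine brings its receptor chains together, receptor-bound JAK kinases phosphorylate STAT factors, and the STATs switch on SOCS genes, whose proteins bind the receptor or the kinase through an SH2 domain. Their shared SOCS box recruits a ubiquitin ligase through elongins and a cullin. In T cells Cish and Socs2 are known targets of STAT5, which interleukin 2 activates, and Socs1 restrains interferon and interleukin 2 signaling and is needed for Treg stability.

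RefSeq promoter windows (build GRCm38.p6) were at hand for 4 members, Cish, Socs1, Socs3 and Socs4. Each runs from 250 bases before to 50 after a RefSeq start site. For Cish and Socs3 that site lies inside the gene span given below. The stretches below are shown because they hold matches to the letters that STAT factors and interferon-activated factors are known to bind. Capitals mark the matches, and each stretch is written 5′ to 3′ on the strand of its gene.
Cish, chr9:107296654-107296683, plus strand: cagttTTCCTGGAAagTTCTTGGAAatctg
Socs1, chr16:10785598-10785625, minus strand: ttgccgGAAAGAGAAACCGAAAgcgggg
Socs3, chr11:117969506-117969526, minus strand: ccagccTTCTTAGAAgggagg

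The Cish stretch holds 2 matches to TTCNNNGAA (N is any base), the pattern of a STAT site, and the Socs3 stretch holds 1. Among all 32841 RefSeq promoter windows of the same length, searched on both strands, 8.298% held at least 1 such match and 0.4567% held 2 or more. The Socs1 stretch holds 2 overlapping matches to GAAA and GAAA with 2 bases between them, the core of an interferon-stimulated element, which 3.444% of windows held at least once and 0.2253% at least 2 times. A STAT pattern with a longer spacer, TTC and GAA with 4 bases between them, was in none of the 4 windows and in 6.952% of all windows. The Socs4 window held none of these patterns. Both Cish matches lie after the start site used, at bases 1 to 9 and 12 to 20. A match is a description of letters and not a measured binding site.

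Counts were deposited for the libraries without a tumor, with totals from 24159217 to 31075452 counts, and only FPKM for those with a tumor, whose depth is unknown. The tables were normalized separately, so levels are not compared between them. All 10 Treg markers were present in every library. Foxp3 itself stood at 230.0 CPM (counts scaled to the library total) in the WT control and at 22.3 in the Foxp3-Cre control, and at 21.2 and 9.33 in SRC-3KO. Ncoa3, the gene of SRC-3, was read in all SRC-3KO libraries, at 39.8 and 24.5 CPM against 131 and 58.7 in control without a tumor. With a tumor it was read at 47.5 and 27.7 FPKM against 37.7 and 45.4. Its change passed the test in neither state (edgeR adjusted p = 0.910 and limma adjusted p = 0.770), and the tables do not say which exons the allele removes. In bulk samples such as these, fewer cells of a type and less RNA per cell cannot be told apart.

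With a tumor, Cish and Socs1 were more abundant in either SRC-3KO library than in any control, and neither gene passed the test over all genes. Cish, which binds interleukin 2 and other cytokine receptors, was at 168 and 139 FPKM in control and at 237 and 226 in SRC-3KO. Its groups did not overlap, with means of 153.8 ± 20.4 (SD, n = 2) and 231 ± 7.43 (SD, n = 2), a ratio of 1.5. The log2 fold change of FPKM + 1 was 0.59 (SE 0.21, 95% interval 0.06 to 1.12), with a limma adjusted p of 0.271. Cish lies on chromosome 9 (mm10, 107296026 to 107302784, plus strand). An antisense gene on the opposite strand covers 7.46% of its exon bases and a pseudogene on that strand 4.07%, so its reads cannot be told from antisense reads where counting ignores strand.

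Socs1, an inhibitor that blocks the JAK kinase itself, was at 149 and 158 FPKM in control and at 195 and 189 in SRC-3KO. Replicates lay close together in each group, 153.7 ± 6.44 (SD, n = 2) against 192 ± 3.90 (SD, n = 2), and the ratio of means was 1.25. The log2 fold change was 0.32 (SE 0.19, 95% interval -0.17 to 0.80), with a limma adjusted p of 0.443. Socs1 lies on chromosome 16 (mm10, 10782240 to 10785536, minus strand), and its longest transcript has the highest GC content of the family, 58.8%, beside 53.1% for Cish and 38.5% for Socs4.

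Socs2 and Socs3 were spread widely in the tumor controls and closely in SRC-3KO. Socs2, a regulator of growth hormone signaling, was at 139 and 81.7 FPKM in control and at 89.1 and 92.5 in SRC-3KO. Both SRC-3KO values thus lay between the controls, and the log2 fold change was -0.23 (SE 0.29, 95% interval -0.97 to 0.51, limma adjusted p = 0.702). Socs3, the main brake on signaling through the interleukin 6 receptor chain gp130, was at 28.2 and 97.2 FPKM in control and at 63.9 and 62.0 in SRC-3KO. Its controls likewise enclosed the SRC-3KO values, and the log2 fold change was 0.25 (SE 0.56, limma adjusted p = 0.832).

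The direction of Socs3 and Socs2 followed the control that was kept. Without control replicate 1 the log2 fold change of Socs3 was -0.62 (limma adjusted p = 0.0634), and without control replicate 2 it was 1.13 (adjusted p = 0.0284). Socs2 stood at 0.15 without control replicate 1 and at -0.61 without control replicate 2 (limma adjusted p = 0.0333). Cish passed without control replicate 1, at 0.73 (limma adjusted p = 0.0499), and was at 0.46 without control replicate 2 (adjusted p = 0.05004, just above the threshold). The fit without control replicate 1 called 3.68% of all genes, 1.31% as higher, and the fit without control replicate 2 called 20.1%, 8.15% as higher and 12% as lower. Both assume that the lone library varies like the others.

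Socs2 lies on chromosome 10 (mm10, 95385362 to 95417180, minus strand) and Socs3 on chromosome 11 (117966079 to 117970047, minus strand).

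The weakly expressed members came next. Socs5, which acts on receptors such as that of interleukin 4, was at 7.72 and 6.55 FPKM in control and at 6.36 and 7.13 in SRC-3KO, and its groups overlapped. Socs6, which binds the receptor kinase Kit, was at 2.05 and 5.22 FPKM in control and at 5.32 and 2.86 in SRC-3KO, also with overlap. Socs4, a close relative of Socs5, was at 1.26 and 0.833 FPKM in control and at 1.46 and 1.61 in SRC-3KO, so both SRC-3KO libraries were higher. Socs7 was at 0.498 and 0.169 FPKM in control and at 0.516 and 0.605 in SRC-3KO, below the minimum for testing. Log2 fold changes were -0.07 (SE 0.22) for Socs5, 0.18 (SE 0.44) for Socs6 and 0.32 (SE 0.25) for Socs4, with limma adjusted p-values from 0.542 to 0.888.

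**Figure D1:**
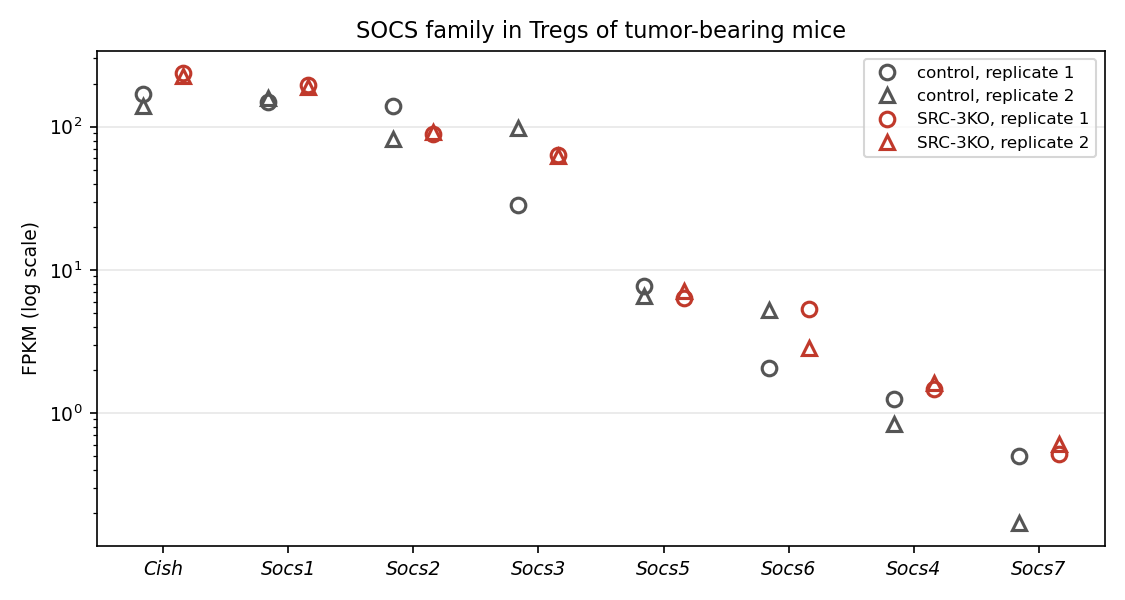
FPKM on a log scale for each member in tumor-bearing mice, with members in order of their median; gray symbols are the 2 control libraries, red symbols the 2 SRC-3KO libraries, and circles and triangles are replicates 1 and 2. Cish (139 to 168 against 226 to 237 FPKM) and Socs1 (149 to 158 against 189 to 195 FPKM) separate by group, while the controls of Socs2 and Socs3 lie on both sides of SRC-3KO.

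Of the 7 members tested with a tumor, 3 did not overlap and were higher in SRC-3KO (Cish, Socs1 and Socs4), and 0 were lower. Among all 12859 genes tested, 27.5% did not overlap and were higher, and 24.9% were lower. No member passed the limma test, which called 0.109% of all genes, and 1 member (Cish) had an unadjusted p under 0.05, as did 16.5% of all genes. The median log2 fold change of the members was 0.25, beside -0.02 over all genes. Removing a trend over transcript length and GC content brought the members' median to 0.04 and Cish to 0.30. Scaling libraries to equal sums brought the members' median to 0.46, that of all genes to 0.19 and Cish to 0.83 (limma adjusted p = 0.105).

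Cell markers also differed between the tumor libraries. Of the 10 Treg markers, 7 did not overlap and were higher in SRC-3KO and 0 were lower, with a median log2 fold change of 0.47. Foxp3 was at 18.4 and 14.7 FPKM in control and at 20.1 and 28.8 in SRC-3KO, and the summed level of the list was 4718 and 3225 FPKM in control and 4486 to 4521 in SRC-3KO. Markers of other cells moved as well. The summed level of 11 B cell markers was 1665 to 2299 FPKM in control and 253 to 275 in SRC-3KO, where 3 of the 11 reached 1 FPKM against 6 and 8 in control. The sum of 8 neutrophil markers was 4.72 FPKM in control replicate 1, 3953 in control replicate 2 and 0 to 1.56 in SRC-3KO, with 5 and 8 of the 8 at 0 in the SRC-3KO libraries. For 8 monocyte and macrophage markers it was 48.1 and 1457 FPKM in control and 9.23 to 11.8 in SRC-3KO. In control replicate 1 most of that sum was Apoe, at 39.8 FPKM against 1.39 and 1.48 in SRC-3KO. Cd68, at 7.62 FPKM in that control, lay between 9.51 and 6.87 in SRC-3KO. Lyz2 was lower there than in SRC-3KO (0.404 against 0.771 and 0.770 FPKM) and Adgre1 higher. Csf1r, Cd14, Fcgr1 and Itgam were at 0 in that control. Control replicate 2, which was highest in the neutrophil and monocyte sums, was also highest in Socs3 and lowest in Socs2, Socs4, Socs7 and Cish. The part of these markers and cells in the SOCS values was not tested.

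Without a tumor, 3 of the 4 libraries held almost the same level of Socs1, and the WT control stood apart. Socs1 was at 432 and 431 CPM in SRC-3KO, at 1650 in the WT control and at 433 in the Foxp3-Cre control. By library totals both controls thus lay above SRC-3KO, though the Foxp3-Cre control did so by about 1 CPM. With TMM scaling factors the values were 430 and 471 CPM in SRC-3KO and 1655 and 399 in control, and the groups overlapped. The edgeR log2 fold change was -1.19 (SE 1.03, adjusted p = 0.910).

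Cish was also highest in the WT control, at 164 and 136 CPM in SRC-3KO, 405 in the WT control and 86.5 in the Foxp3-Cre control. The controls enclosed SRC-3KO, and the log2 fold change was -0.64 (SE 1.01, edgeR adjusted p = 0.912). Socs2 varied least among the 3 abundant members, at 527 and 454 CPM in SRC-3KO and at 487 and 399.9 in control, with a log2 fold change of 0.25 (SE 0.82, adjusted p = 0.943). The WT control, far above the rest in Socs1 and Cish, lay inside the range of the others in Socs2.

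Socs3 and Socs7 covered the widest ranges. Socs3 was at 6.27 and 5.99 CPM in SRC-3KO, at 26.9 in the WT control and at 0.124 (3 counts) in the Foxp3-Cre control. Socs7, which binds adaptor proteins of receptor signaling, was at 2.22 and 3.41 CPM in SRC-3KO, 19.4 in the WT control and 0.166 (4 counts) in the Foxp3-Cre control. Each gene was highest in one control and lowest in the other. Their log2 fold changes, -1.09 (SE 1.86) and -1.72 (SE 1.85), had edgeR adjusted p-values of 0.916 and 0.910.

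The remaining members were low in every library. Socs4 was at 11.9 and 8.69 CPM in SRC-3KO and at 10.4 and 9.93 in control. Socs5 was at 12.97 and 6.53 CPM in SRC-3KO and at 16.2 and 11.1 in control. Socs6 was at 8.20 and 3.25 CPM in SRC-3KO, 7.33 in the WT control and 0.911 (22 counts) in the Foxp3-Cre control. All 3 overlapped between groups, with log2 fold changes of 0.13 (SE 0.82), -0.40 (SE 0.86) and 0.52 (SE 1.34) and edgeR adjusted p-values from 0.925 to 0.970.

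**Figure D2:**
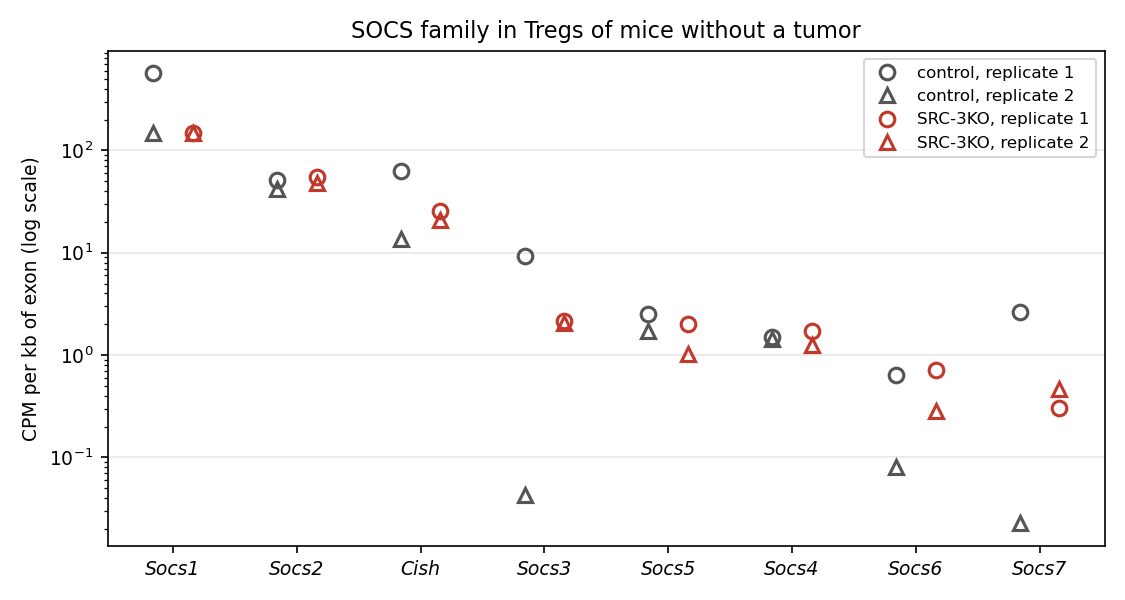
CPM per kb of exon on a log scale for each member without a tumor, in order of the median; gray symbols are the controls (circle, WT control; triangle, Foxp3-Cre control) and red symbols the 2 SRC-3KO libraries. The WT control is the highest library in Socs1, Cish, Socs3, Socs5 and Socs7, and the Foxp3-Cre control is the lowest in Socs2, Cish, Socs3, Socs6 and Socs7.

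Of the 8 members tested without a tumor, 0 passed the edgeR test, which called 0% of the 14860 genes tested (472 genes, 3.18%, had an unadjusted p under 0.05, and DESeq2 called 86). By library totals 1 member (Socs1) did not overlap and was lower in SRC-3KO, beside 21% of all genes. None was higher, beside 18.3% of all genes. The median log2 fold change of the members was -0.52 and that of all genes -0.02. The members' median was 0.61 without the WT control and -1.06 without the Foxp3-Cre control. Removing the trend over length and GC content turned the members' median to 0.12, Socs1 to 0.23 and Cish to 0.43.

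The fold change without a tumor depended on which control was kept. Against the Foxp3-Cre control alone, the log2 fold change of Socs1 was 0.07 (SE 0.15, edgeR adjusted p = 0.836), that of Cish 0.86 (adjusted p = 0.153), that of Socs3 5.65 (adjusted p = 0.107) and that of Socs7 4.13. Against the WT control alone, 4 members passed the edgeR test as lower in SRC-3KO: Socs1 at -1.90 (adjusted p = 0.00175), Cish at -1.41 (adjusted p = 0.00539), Socs3 at -2.10 (adjusted p = 0.0116) and Socs7 at -2.74 (adjusted p = 0.0143). That fit called 21.6% of all genes as lower and 43.8% in either direction, whereas the fit with the Foxp3-Cre control called 0.00628% of genes. Each rests on 1 control library, and its spread comes from the SRC-3KO pair alone.

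The WT control also differed in its cell markers. The summed level of the 10 Treg markers was 4402 CPM there, 8852 in the Foxp3-Cre control and 10574 to 10885 in SRC-3KO. Single Treg markers went the other way, since Foxp3, Cd4 and Cd3e were highest in the WT control. The sum of 8 CD8 T and NK cell markers was 1371 CPM in the WT control, 128 in the Foxp3-Cre control and 374 to 557 in SRC-3KO. Nkg7 made up most of each sum, at 1320 and 103 CPM in these controls and 533 and 351 in SRC-3KO. Cd8b1 went the other way, at 7.09 CPM in the WT control, 24.7 in the Foxp3-Cre control and 18.4 and 21.2 in SRC-3KO. Cd8a, Gzma, Prf1 and Eomes were highest in the WT control, while Ncr1 was at 0 in both controls and Klrb1c at 0.0396 and 0.0414 CPM. B cell markers summed to 116 CPM in the WT control, 1511 in the Foxp3-Cre control and 418 to 917 in SRC-3KO. The Foxp3-Cre control had 333 CPM of the neutrophil markers, and the other 3 libraries had at most 0.0792. The part of other cells in these values was not tested, and the genotype of the controls, the GFP label and the library cannot be told apart.

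**Figure D3:**
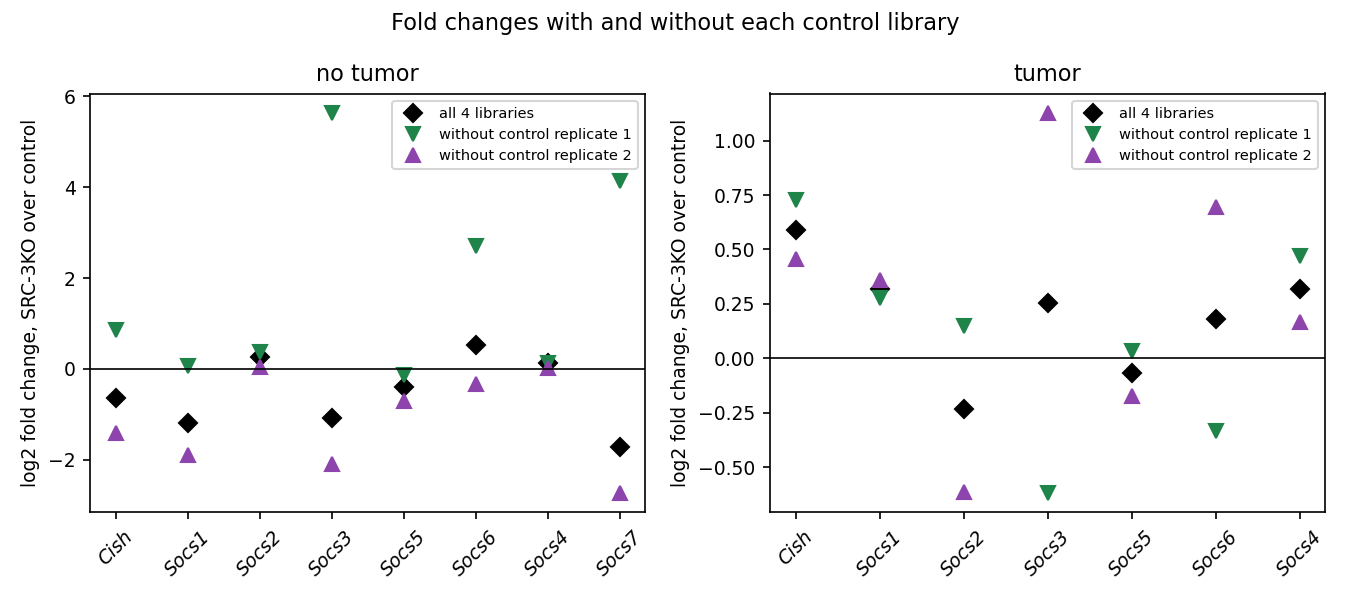
Log2 fold change of SRC-3KO over control for each member without a tumor (left) and with a tumor (right); black diamonds use all 4 libraries, green triangles leave out control replicate 1 and purple triangles leave out control replicate 2. Without a tumor Socs3 runs from -2.10 to 5.65 and Socs1 from -1.90 to 0.07, while with a tumor Cish stays between 0.46 and 0.73.

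The difference between states (limma log2 fold change with a tumor minus limma-voom log2 fold change without) was tested over 11674 genes, of which 0% were called and 469 (4.02%) had an unadjusted p under 0.05. It was 1.17 (SE 0.97) for Socs1, 0.80 (SE 1.01) for Cish and -1.55 (SE 2.23) for Socs3. None of the 7 members tested passed, and the smallest adjusted p was 0.594, for Socs1. For Socs3 the no-tumor fold change was 1.80 by limma-voom and -1.09 by edgeR, so its sign differed between tools. With the WT control as the only control without a tumor, Socs1 (2.22, adjusted p = 0.0214) and Cish (2.003, adjusted p = 0.0218) passed as higher, in a fit that called 24.8% of all genes as higher and 48% in either direction. Without the WT control the difference was 0.25 for Socs1 and -0.27 for Cish, and 0 genes were called.

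**Figure D4:**
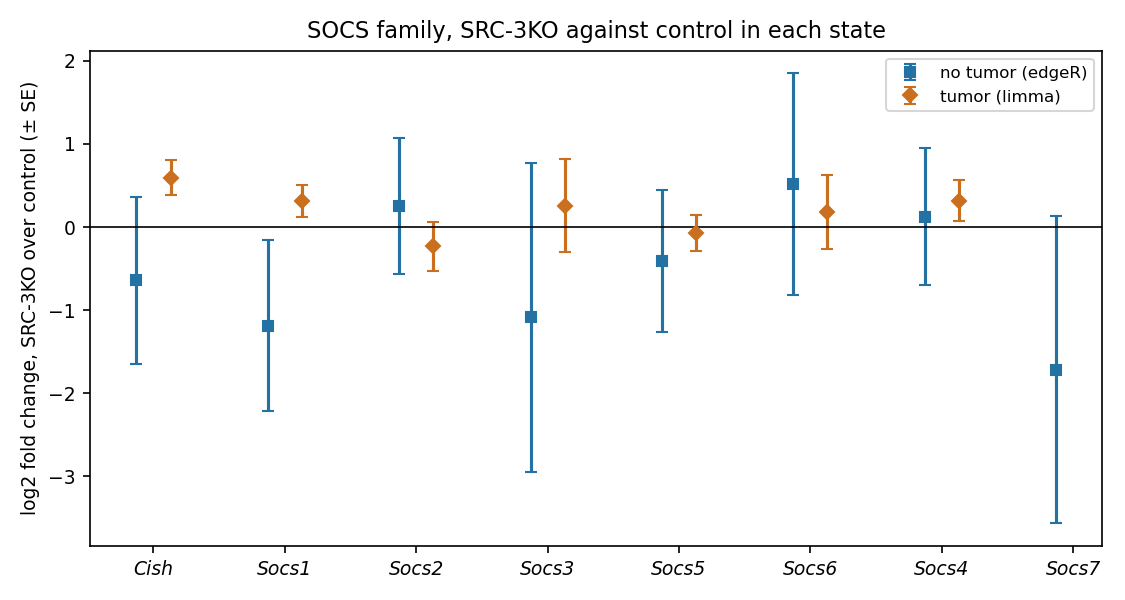
For each member, the log2 fold change (SRC-3KO over control, bars ± 1 SE) without a tumor (blue squares, edgeR) and with a tumor (orange diamonds, limma); Socs7 was not tested with a tumor. Cish stands at -0.64 and 0.59 and Socs1 at -1.19 and 0.32. The bars (1.01 and 0.21 for Cish) come from different tools and units, so their lengths are not compared between states.

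The order of the levels per length was described within each table. Without a tumor, Socs1 led with a median of 149 CPM per kb of exon, followed by Socs2 at 49.4 and Cish at 23.3. The ranges of Socs2 and Cish overlapped, so their order was not beyond the spread. Socs3, Socs5 and Socs4 followed at 2.12, 1.88 and 1.48 CPM per kb with overlapping ranges, and Socs6 and Socs7 had the lowest medians, at 0.466 and 0.388. Ranges also crossed beyond the next rank. Socs7 ran from 0.0228 to 2.67 CPM per kb, across the ranges of Socs4 and Socs5, and Socs3 ran from 0.0430 to 9.31. With a tumor, Cish and Socs1 led with median FPKM of 197 and 174 and overlapping ranges, and Socs2 and Socs3, at 90.8 and 62.9, also overlapped. Socs5, Socs6, Socs4 and Socs7 followed at 6.84, 4.04, 1.36 and 0.507 FPKM, each range clear of the next.

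The makeup of the family was read as the share of each member in the sum of the 8 levels per length. Without a tumor, Socs1 made up 62.9% to 81.3% of that sum and Cish 6.49% to 10.8%. With a tumor, Socs1 held 30.04% to 32.6%, and Cish held 33.9% and 28.5% in control and 39.6% and 38.8% in SRC-3KO. Socs2 held 28.1% and 16.7% in control and 14.9% and 15.9% in SRC-3KO with a tumor. Lengths were counted differently in the tables (all annotated exons of a gene in one, the authors' FPKM in the other), so these shares are not compared between states. Within a library the ratio of Cish to Socs2 needs no scaling between libraries. With a tumor that ratio was 1.21 and 1.71 for the controls and 2.66 and 2.44 for SRC-3KO. Without a tumor it was 0.462 and 0.443 in SRC-3KO, 1.24 in the WT control and 0.321 in the Foxp3-Cre control. The ratio was thus higher in both SRC-3KO libraries with a tumor, and was enclosed by the controls without one. The ratio of Cish to Socs1 was higher in SRC-3KO in both states. With a tumor it was 1.13 and 0.881 for the controls and 1.21 and 1.19 for SRC-3KO. Without a tumor it was 0.111 and 0.0906 for the controls and 0.172 and 0.142 for SRC-3KO. The ratio of Socs1 to Socs2 was higher in SRC-3KO with a tumor and lower without one. With a tumor it was 1.07 and 1.94 for the controls and 2.19 and 2.05 for SRC-3KO. Without a tumor it was 11.1 and 3.55 for the controls and 2.69 and 3.11 for SRC-3KO. A trend over length and GC content can still alter such a ratio. Without a tumor, the edgeR log2 fold changes of Socs1 and Socs2 were -1.19 and 0.25, and 0.23 and 0.0068 with that trend removed. The lower ratio without a tumor thus depended on keeping the trend. With a tumor, the limma values with the trend removed were 0.16 and -0.34. How often other gene pairs separate by group was not counted.

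**Figure D5:**
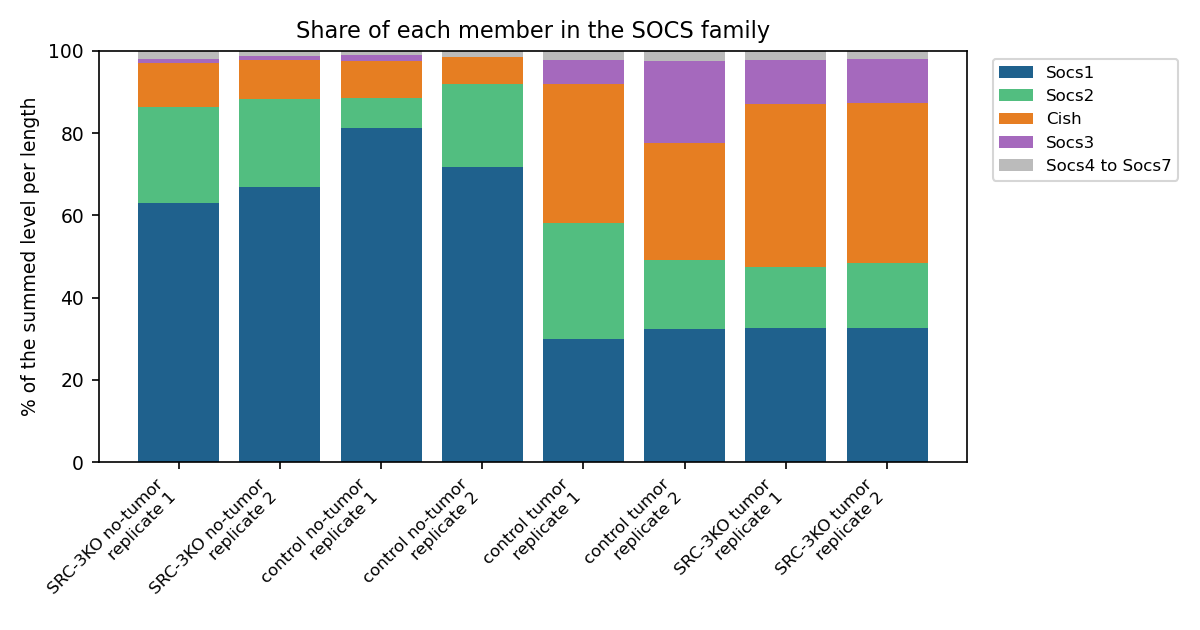
Stacked bars give the share of each member in the summed level of the family, in percent, for each of the 8 libraries (CPM per kb of exon without a tumor, FPKM with a tumor), with Socs4 to Socs7 as 1 gray block. Socs1 takes 81.3% in the WT control, and Cish takes 38.8% to 39.6% in the SRC-3KO libraries with a tumor against 28.5% to 33.9% in their controls.

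Against all expressed genes of the same library (those above 0), ranked per length, the abundant members stood near the top. Such genes numbered 15324 in the Foxp3-Cre control and 23898 in the WT control, and 19974 to 22997 with a tumor. A percentile depends on that number too. Socs1 lay at percentiles 94.9 to 99.5 without a tumor and 96.7 to 98.6 with one. Socs2 lay at 86.4 to 94.5 and 95.04 to 96.4, and Cish at 73.8 to 95.4 and 97.1 to 98.8. Socs3 reached from 3.48 to 81.4 without a tumor and from 84.3 to 95.9 with one. Socs4 stayed near the middle, at 34.7 to 58.9 and 38.9 to 50.03.

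Genes with the most similar pattern were found by Pearson's r over the 8 libraries, on log2 values centred within each table, among 9510 genes. For Socs1 they were Cand1 (r = 0.998), Gatad2a (0.998) and Ssbp3 (0.997). For Cish they were Senp1 (0.993), Septin1 (0.991) and Cd3e (0.991), and for Socs3 the first was Camk1d (0.995). For Socs2 the first was Fbxw17 (0.969). Among members, Socs3 and Socs6 reached 0.91 and Cish and Socs1 0.89, and over the 4 tumor libraries alone these were 0.84 and 0.88. Some pairs rose there, such as Cish and Socs4 from 0.44 to 0.94 and Socs2 and Socs5 from 0.27 to 0.88. Others did not hold. Cish reached 0.80 with Socs3 and 0.69 with Socs6, and over the tumor libraries alone these were -0.11 and -0.01. The points share the WT control, which stands far from the other 3 libraries, and the values are descriptions of 8 libraries.

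The rest of the pathway was read from lists of receptors, kinases, targets and partners, and no gene of these lists passed the test in either state. Each list is given by its median, beside -0.02 for all genes tested in each state, and with a tumor by its non-overlapping genes, beside 27.5% higher and 24.9% lower among all genes. In the tumor libraries, 18 cytokine receptors had a median log2 fold change of 0.24, with 8 higher and 2 lower without overlap. Il2ra, the interleukin 2 receptor alpha chain, was at 291 and 291 FPKM in control and at 497 and 621 in SRC-3KO (log2 fold change 0.93, limma adjusted p = 0.203). Il12rb2, a chain of the interleukin 12 receptor, was at 5.03 and 8.51 FPKM in control and at 1.45 and 0.330 in SRC-3KO (-2.07, limma adjusted p = 0.151).

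Among the 11 JAK kinases and STAT factors, 7 did not overlap and were higher in SRC-3KO with a tumor and 0 were lower, with a median of 0.51. Stat5a, which carries interleukin 2 signals, was at 34.8 and 31.3 FPKM in control and at 61.5 and 81.9 in SRC-3KO (log2 fold change 1.08, limma adjusted p = 0.156). Jak3, the kinase of the common gamma chain, stood at 0.76 (adjusted p = 0.180) and Stat5b at 0.65 (adjusted p = 0.221). Removing the length and GC trend brought the median of this list to 0.14. Without a tumor its median was -1.504, with 5 lower and 1 higher without overlap, beside 21% and 18.3% of all genes. Against the Foxp3-Cre control alone that median was -0.15, and against the WT control alone it was -2.16.

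Target genes of the STATs were read next. With a tumor, the 12 STAT5 targets had a median of -0.02 (0.21 after scaling to equal sums, where all genes had 0.19), 3 higher and 3 lower without overlap, with Pim1, a survival kinase, at 1.06 (limma adjusted p = 0.236) and its relative Pim2 at -0.98 (adjusted p = 0.183). The 8 STAT3 targets had a median of 0.61, 5 higher and 1 lower without overlap, with Batf, a T cell transcription factor, at 0.96 (adjusted p = 0.209).

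The 8 partners of the SOCS box ligase had a median of -0.31 with a tumor, with 5 lower and 1 higher without overlap. Eloc, the elongin that the SOCS box binds, stood at -0.66 (limma adjusted p = 0.251), and the ligase Arih2 at 0.88 (adjusted p = 0.293). The 13 other inhibitors of the pathway had a median near 0 (0.21 with equal sums), 4 higher and 3 lower without overlap, among them Usp18, an inhibitor of interferon signaling, at -1.38 (limma adjusted p = 0.172), the phosphatase Ptpn6 at -0.90 (adjusted p = 0.209) and the phosphatase Ptpn2 at -0.52 (adjusted p = 0.263). Without a tumor the medians were -0.75 for STAT5 targets, -0.96 for STAT3 targets, 0.98 for ligase partners and -0.49 for the other inhibitors. Against the Foxp3-Cre control alone these medians were 0.33, -0.14, 0.17 and 0.63, in the same order. With the length and GC trend removed they were -0.23, -0.08, 0.55 and 0.47.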

How the data were processed

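The deposited read counts (libraries without a tumor) and the authors' FPKM values (libraries with a tumor) cover the same genes. Per the submitters' processing notes, FastQC, Trim Galore, STAR, featureCounts, edgeR and the build mm10 were used, and per the file headers the FPKM came from StringTie. Versions, strand setting and annotation release were not given in the sources used here. Counts were tested with edgeR 4.0.16 (R 4.3.3; filterByExpr, TMM factors, quasi-likelihood test, common dispersion 0.791). The SE given with edgeR was derived from the fold change and its F statistic. FPKM were tested with limma 3.58.1 with an intensity trend on log2(FPKM + 1), keeping genes that reached 1 FPKM in 2 or more libraries, so fold changes of low genes are understated. The states' difference used the smaller degrees of freedom. p-values were adjusted by Benjamini-Hochberg over all genes tested, with a threshold of 0.05. CPM use library totals, and exon lengths came from GENCODE vM21. Alternatives included DESeq2 1.42.0, limma-voom and a length and GC trend fitted with mgcv 1.9.3. Scripts were tested on simulated data. The members and lists were chosen with earlier results of these data known. Named genes were the members, up to 3 genes per list and state with the smallest adjusted p, and the most alike genes. Of those, the ones the results turn on are printed. A further list of target genes, beside those of STAT5 and STAT3, is not reported here. Tumor against no tumor was not tested.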

Additional observations from a re-analysis of the deposited data

Results flagged for a closer look

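In these genes the groups did not overlap in either state and lay in opposite directions, and the test of the difference between states called none of them (adjusted p from 0.571 to 0.594, limma and limma-voom). The difference, with a tumor minus without, was 1.17 (log2) for Socs1, the only member concerned; without a tumor its groups did not overlap by library totals only, and overlapped with TMM factors. Among receptors it was 1.996 for Il27ra and 4.50 for Il10ra. Among kinases and STAT factors it was 2.08 for Jak3 and 2.68 for Stat5a. Among targets it was 2.12 for Bcl2l1 and 2.41 for Junb. For the ligase subunit Rbx1 it was -2.39, for the STAT inhibitor Pias3 3.29, for the interferon signaling inhibitor Usp18 -3.85 and for the phosphatase Ptpn2 -2.08. These are the genes that the naming rule reaches. Cell markers such as Foxp3, Cd4, Ikzf4, Prdm1 and Cd79b showed the same pattern. The share of all genes that shows it was not counted. Non-overlap in a single state was common among all genes tested. Without a tumor 18.3% were higher and 21% lower, and with a tumor 27.5% were higher and 24.9% lower. Overlap without a tumor was read by library totals for every gene named. Without the WT control the difference of Socs1 was 0.25, and those of the other genes named here are not given.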

How the results depend on the processing

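Of 226 recomputed member values, 188 kept direction and side of the threshold, 29 reversed, 9 newly passed it and 0 lost a call, since no member was called with all libraries. Without a tumor 0 genes were called; DESeq2 called 86, the fit without a filter on low counts 70, and leaving out libraries 0 to 7434. With a tumor 14 genes were called; a pseudocount of 0.1 gave 7, no filter 1, a filter of 5 FPKM 30, equal sums 4, median-of-ratios scaling 6 and left-out libraries 31 to 2510. With the replicate block (the P number of the tumor labels) 72 genes were called and Cish had a limma adjusted p of 0.332. Deviations of P1 libraries correlated at 0.036 across genes, so they showed almost no common pattern. The labels leave the P number unexplained. Whether it pairs the libraries cannot be decided from this correlation, since it rests on so few libraries. For the difference between states 0 genes were called, and 0 to 5718 with a library left out.

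Reversed log2 fold changes without a tumor were -0.0096 for Socs4 with DESeq2 and with RLE factors, and 1.80 for Socs3 and 0.71 for Socs7 with limma-voom. With the length and GC trend removed they were 0.23 for Socs1, 1.11 for Socs3, -0.31 for Socs4, -0.068 for Socs6, 0.37 for Socs7 and 0.43 for Cish. With a tumor, equal sums gave 0.0088 for Socs2 and 0.14 for Socs5, and the removed trend gave -0.035 for Socs6. The cause was not tested.

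With a library left out, values without a tumor ran from -1.90 to 0.071 for Socs1, -2.10 to 5.65 for Socs3, -0.33 to 2.71 for Socs6, -2.74 to 4.13 for Socs7 and -1.41 to 0.86 for Cish. With a tumor they ran from -0.61 to 0.15 for Socs2, -0.62 to 1.13 for Socs3, -0.17 to 0.035 for Socs5, -0.33 to 0.69 for Socs6 and 0.46 to 0.73 for Cish. The difference between states ran from 0.25 to 2.22 for Socs1, -5.22 to 2.35 for Socs3, -0.092 to 0.73 for Socs5, -2.35 to 0.67 for Socs6 and -0.27 to 2.003 for Cish. Depth is unknown with a tumor, and 3 to 22 counts underlie Socs3, Socs7 and Socs6 in the Foxp3-Cre control.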
